A study of Felis catus with 8 samples.

Results

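Complement and coagulation genes of the liver were followed in 9-month-old male cats fed one of 4 diets. The group held 40 genes, chosen as a list of plasma proteins that the liver makes, and all 40 had probe sets that the platform annotation assigns to exactly 1 gene. They had 611 such probe sets of 224320 in all. A filter on the mean over the 8 arrays kept 382 of the 611 and left 39 genes among the 17910 that were tested. Complement factor B (CFB) dropped out, because both of its probe sets lay below the median of all probe sets.

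Complement is a cascade of plasma proteases that is started by antibodies, by sugars on microbes or by spontaneous turnover of C3. The starting arms meet at C3, and its cleavage leads through C5 to the membrane attack complex, a pore built from the terminal components. Coagulation is a second protease cascade, which ends with thrombin cutting fibrinogen into fibrin, and plasmin later dissolves the clot. Hepatocytes secrete most of these proteins, and some of them rise in plasma during the acute phase response.

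The combined diet held 8.6% trans fat, 24% high-fructose corn syrup (HFCS) and 1.125% monosodium glutamate (MSG). The trans-fat/HFCS diet held the first pair without MSG, the MSG diet was chow with 1.125% MSG, and the control diet was standard cat chow. Dams ate the diet from 3 weeks before mating through nursing, and their sons were weaned onto it. Each diet had 2 arrays of snap-frozen liver RNA, labelled as biological replicates and numbered as separate cats. Litters and any pooling of RNA are not given, so p-values measure the spread between these arrays only. The arrays carry human probes, and a signal depends on how well the cat transcript matches them, which may also vary between single cats.

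The median intensity of an array was 5.25 at the lowest and 5.28 at the highest, and precision is limited by having 8 arrays. All 12 listed hepatocyte markers, albumin among them, were measured. Their summed intensity lay between 4700 and 4960 on the 4 arrays with trans fat and HFCS, against 4500 to 4870 on the other 4. The 10 skeletal muscle markers set the trans-fat/HFCS arrays apart: their sum was 745 and 764 there, 193 and 174 on the combined diet, 172 and 173 on the MSG diet and 168 and 172 on the control diet. The sum of 10 Kupffer cell markers lay between 340 and 381 with trans fat and HFCS, against 315 to 344 without. That of 5 neutrophil markers lay between 48.6 and 60.3, against 69.4 to 93.5. Of these 5, 4 were lower and 1 higher with trans fat and HFCS. The largest difference, -1.81 on the log2 scale, was that of S100A12, read by 1 probe set. S100A12 stood at 2.95 and 2.39 on the combined diet and 2.14 and 2.01 on the trans-fat/HFCS diet. On the MSG diet it stood at 4.13 and 2.93 and on the control diet at 5.09 and 4.58. In whole liver tissue, fewer cells of a type and less RNA per cell cannot be told apart.

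Values below are log2 intensities averaged over the kept probe sets of a gene. A level of one gene is not compared with that of another, since probes differ in their match to the cat. The brightest gene means were those of C1R (9.14), prothrombin F2 (9.09) and the fibrinogen gamma chain FGG (8.65). The dimmest were protein Z, PROZ (2.90, 3 of 10 probe sets kept), mannose-binding lectin MBL2 (3.45, 2 of 6 kept) and factor XII, F12 (4.85). Replicate arrays differed little: the median of the within-diet SDs, pooled over diets, was 0.15 for the 39 genes and 0.20 for all genes tested. The 39 genes rest on 382 kept probe sets and the 17910 genes on 111624, so the listed genes average more probe sets each. The part of this in the smaller spread was not tested.

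No complement or coagulation gene passed the test for trans fat and HFCS, as a mean of the effects with MSG and without it (4 arrays against 4; limma, Benjamini-Hochberg adjusted p under 0.05). Across all genes tested, 7.66% passed. At an unadjusted p under 0.05 there were 6 of the 39, 4 higher and 2 lower, against 24.5% of all genes. The log2 differences ran from -0.40 for SERPING1 to 0.47 for F11, with a median of -0.02, against a median of 0.02 over all genes. The median size of a difference, whatever its sign, was 0.12 for the 39 genes and 0.19 for all genes. The listed genes average more probe sets each, and the part of that in this gap was not tested. The 95% intervals of all 39 genes lay within a 2-fold change, and those of 31 lay within 1.5-fold.

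**Figure D1:**
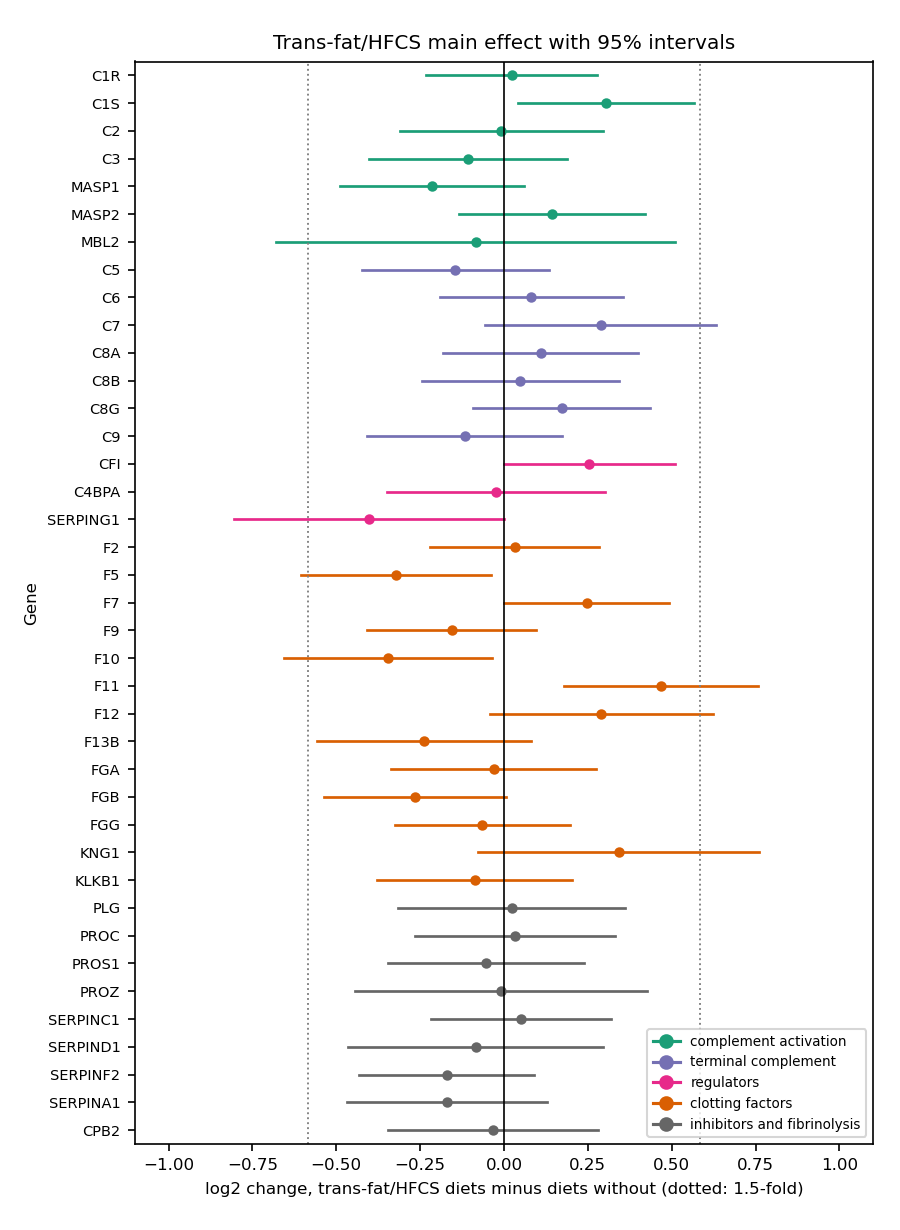
Log2 change of each of the 39 genes for the trans-fat/HFCS main effect (x axis; positive means higher with trans fat and HFCS), with points at the estimate, bars at limma's 95% interval and colours for the 5 arms. Dotted lines mark 1.5-fold, and the intervals of 31 genes stay between them.

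The 4 arrays with trans fat and HFCS stood wholly above the other 4 in 4 of the 39 genes, against 8.29% of all genes. These were F11, F12, CFI and C8G. In none of the 39 did they stand wholly below, against 6.72% of all genes.

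**Figure D2:**
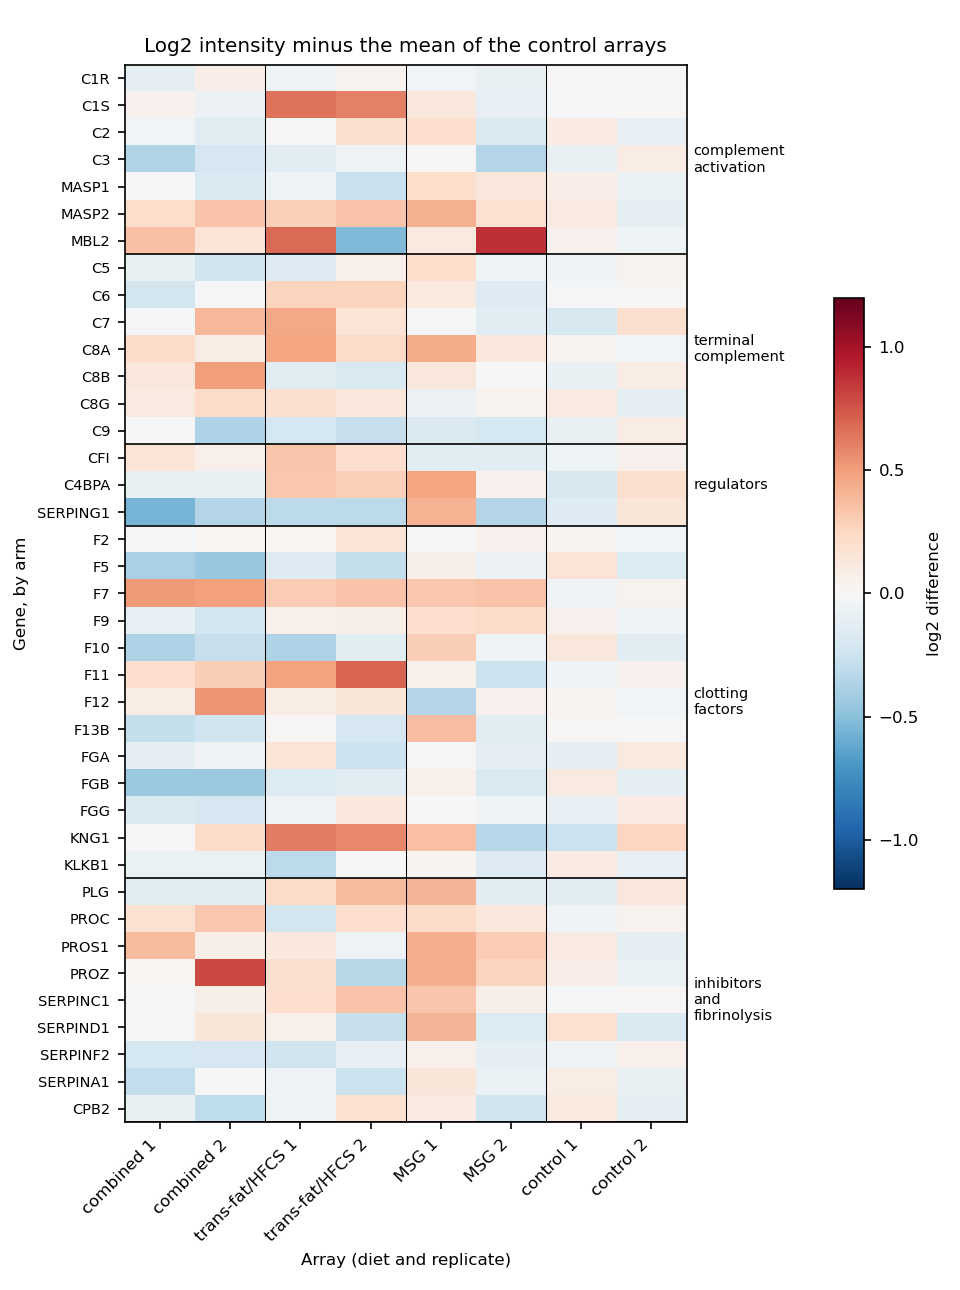
Each row is a gene and each column an array, grouped by diet; colour gives the log2 intensity minus the mean of the control arrays. Most cells are pale, the 2 trans-fat/HFCS arrays are red in C1S, KNG1 and F11, and the dim genes MBL2 and PROZ show strong colours on single arrays.

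In the arm that starts complement, 7 genes were measured and their median difference with trans fat and HFCS was -0.01. C1R and C1S are the proteases of the C1 complex: C1R activates C1S, which cuts C4 and C2. C1S stood at 8.03 and 7.91 on the combined diet, 8.63 and 8.58 on the trans-fat/HFCS diet, 8.10 and 7.88 on the MSG diet and 7.96 and 8.00 on the control diet. Both trans-fat/HFCS arrays thus lay above all 6 others, while the remaining diets overlapped. Against control the trans-fat/HFCS diet differed by 0.63 (SE 0.16, 95% interval 0.26 to 1.00, adjusted p = 0.083 in limma), and the main effect was 0.30 (SE 0.12, adjusted p = 0.15).

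One of the 11 probe sets of C1S (7953614) stood far from the others. It read 6.77 and 7.38 on the trans-fat/HFCS arrays and between 1.79 and 1.99 on the other 6. Its own log2 change was 5.26 against control, while the other 10 averaged 0.17 and ranged from -0.32 to 1.05. With the brightest probe set in place of the mean, C1S differed by -0.03 (adjusted p = 0.95 in limma). That probe set passed the filter through the trans-fat/HFCS arrays, and a pass of the gene mean with an intensity trend in the prior variance (0.63, adjusted p = 0.013) rests on it. With no filter the gene mean differed by 0.41 (adjusted p = 0.076). The arrays that were high are those with high skeletal muscle markers, and the part of those in the result was not tested.

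C1R, the partner of C1S, stood at 9.05 and 9.24 on the combined diet, 9.10 and 9.20 on the trans-fat/HFCS diet, 9.12 and 9.06 on the MSG diet and 9.16 and 9.15 on the control diet. The diets overlapped, and the main effect was 0.02 (95% interval -0.23 to 0.28).

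MASP1, a protease of the lectin pathway, stood at 6.03 and 5.84 on the combined diet, 5.96 and 5.76 on the trans-fat/HFCS diet, 6.23 and 6.16 on the MSG diet and 6.10 and 5.94 on the control diet. The diets with trans fat lay lower on the whole but overlapped the control arrays, and the difference of -0.21 (SE 0.12) did not pass (adjusted p = 0.31 in limma). One of its 14 probe sets moved by -1.72, and without it the mean change was -0.10. MASP2, the lectin-pathway protease that cuts C4 and C2, differed by 0.14 (SE 0.12).

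C3, on which all pathways meet, was 7.63 on average on the combined diet, 7.81 on the trans-fat/HFCS diet, 7.74 on the MSG diet and 7.91 on the control diet (SD 0.11, 0.05, 0.26 and 0.13, n = 2 each). Its difference with trans fat and HFCS was -0.11 (95% interval -0.40 to 0.19). C2, which forms the classical C3 convertase, differed by -0.01 (SE 0.13). The sugar-binding starter MBL2 had the widest interval of all 39 genes, -0.68 to 0.51, and its trans-fat/HFCS arrays stood at 3.92 and 2.72.

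Terminal complement held 7 measured genes, none of them called, with a median of 0.08. C7, which anchors the growing complex in a membrane, stood at 6.58 and 7.01 on the combined diet, 7.07 and 6.77 on the trans-fat/HFCS diet, 6.59 and 6.47 on the MSG diet and 6.42 and 6.79 on the control diet. The arrays overlapped, and the difference was 0.29 (SE 0.15, adjusted p = 0.28 in limma), with 11 of 12 probe sets positive. C8G encodes the gamma chain of C8, a lipocalin. It stood at 5.71 and 5.83 on the combined diet, 5.80 and 5.74 on the trans-fat/HFCS diet, 5.54 and 5.64 on the MSG diet and 5.71 and 5.50 on the control diet. The 4 arrays with trans fat lay above the others by a hair at 5.71, and the difference was 0.17 (SE 0.12, adjusted p = 0.40).

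C8 is built from 3 chains. Against control, the combined diet differed by 0.16 for C8A, 0.32 for C8B and 0.17 for C8G (SE 0.18, 0.18 and 0.16). The trans-fat/HFCS diet differed by 0.35 for C8A, -0.15 for C8B and 0.16 for C8G, with the same errors. None of these passed. C5, which starts pore formation when cut, differed by -0.14 with trans fat and HFCS, C6 by 0.08 and C9, whose copies line the pore, by -0.12 (SE 0.12, 0.12 and 0.13). In C6 one of 13 probe sets carried 2.04, reading 4.76 and 5.98 on the trans-fat/HFCS arrays and between 1.87 and 2.68 on the other 6. As for C1S, the high arrays are those with high skeletal muscle markers, whose part was not tested.

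Among the 3 regulators, factor I (CFI) is the protease that inactivates C3b and C4b. CFI stood at 6.37 and 6.27 on the combined diet, 6.54 and 6.41 on the trans-fat/HFCS diet, 6.08 on both MSG arrays and 6.16 and 6.26 on the control diet. The 4 arrays with trans fat lay just above the other 4, and the difference of 0.25 (SE 0.11) did not pass (adjusted p = 0.20 in limma). One of its 8 probe sets moved by 2.32, and the other 7 averaged -0.04.

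SERPING1 encodes C1 inhibitor, which blocks C1R, C1S, the MASPs and plasma kallikrein. It stood at 5.13 and 5.34 on the combined diet, 5.38 and 5.38 on the trans-fat/HFCS diet, 6.11 and 5.34 on the MSG diet and 5.54 and 5.84 on the control diet. The second MSG array lay among the arrays with trans fat, so the sides overlapped. The difference was -0.40 (SE 0.18, 95% interval -0.80 to 0.0014, adjusted p = 0.21 in limma). Of its 9 probe sets 7 were negative, but the brightest one was at 0.04. C4BPA, a cofactor of factor I that binds C4b, differed by -0.02 (SE 0.14).

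**Figure D3:**
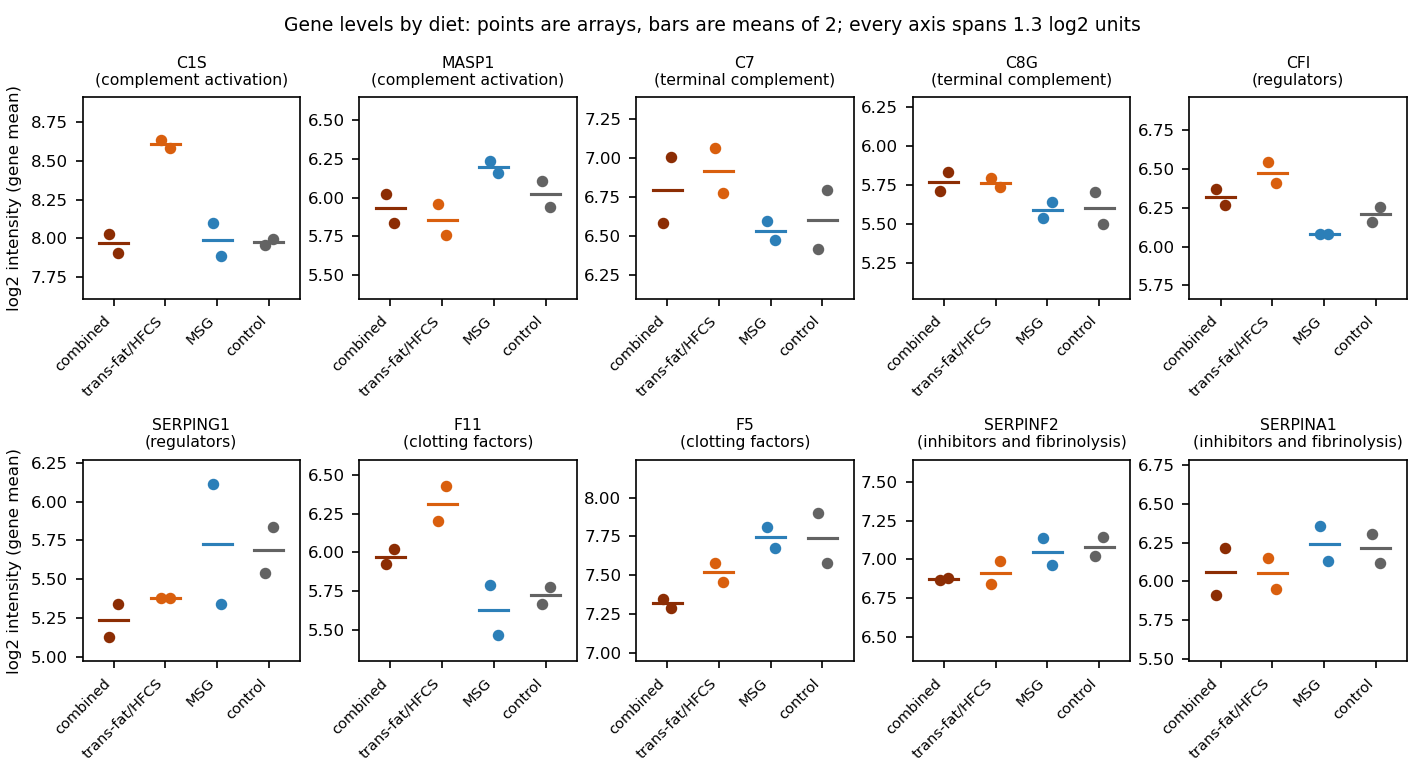
Log2 intensity (y axis, gene mean) of 10 genes, 2 from each arm, on the 4 diets (x axis); points are arrays and bars the means of 2. The 2 trans-fat/HFCS arrays of C1S sit near 8.6, above every other array, and the SERPING1 arrays of the MSG diet lie far apart at 6.11 and 5.34.

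Clotting factors were the largest arm, with 13 genes measured, none called and a median of -0.06. F11 encodes factor XI, a protease that thrombin activates to reinforce clotting. F11 stood at 5.93 and 6.02 on the combined diet, 6.20 and 6.43 on the trans-fat/HFCS diet, 5.79 and 5.47 on the MSG diet and 5.67 and 5.78 on the control diet. All 4 arrays with trans fat and HFCS exceeded the other 4. Its main effect was 0.47 (SE 0.13, 95% interval 0.18 to 0.76), and its adjusted p = 0.059 in limma was the smallest of the 39 genes. It passed without the filter on dim probe sets (0.31, adjusted p = 0.047) and with an intensity trend (0.47, adjusted p = 0.028). It did not pass in the 8 other settings tried or without any 1 array, with the lowest value, 0.20 (adjusted p = 0.70), for the median of its probe sets. Of its 10 probe sets 7 were positive, with the largest at 1.93 and 1.63. Both of these read highest on the trans-fat/HFCS arrays, at 4.55 and 5.06 for one and 4.81 and 6.85 for the other. Those arrays have high skeletal muscle markers, whose part was not tested. The probe set at 1.93 averaged 2.25 outside the trans-fat/HFCS diet. It passed the filter on dim probe sets only through the trans-fat/HFCS arrays. The array levels of F11, its main effect of 0.47 and the pass with an intensity trend all include it. Without it the mean change was 0.31, with the probe set at 1.63 still included, and a pass without it was not tested.

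Factor V (F5) is the cofactor of factor Xa. It stood at 7.35 and 7.29 on the combined diet, 7.58 and 7.46 on the trans-fat/HFCS diet, 7.81 and 7.67 on the MSG diet and 7.90 and 7.58 on the control diet. The first trans-fat/HFCS array and the second control array met at 7.58, and the difference was -0.32 (SE 0.12, adjusted p = 0.15 in limma). One of 20 probe sets moved by -3.19, while the rest averaged -0.17, and 15 of all 20 were negative. The brightest stood at 0.013.

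Factor X (F10), which makes thrombin together with factor V, stood at 5.07 and 5.17 on the combined diet, 5.07 and 5.31 on the trans-fat/HFCS diet, 5.74 and 5.39 on the MSG diet and 5.58 and 5.30 on the control diet. Only the second trans-fat/HFCS array reached the second control array, and the difference was -0.35 (SE 0.14, adjusted p = 0.16 in limma). One of its 7 probe sets moved by -1.73 and the others averaged -0.12.

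Factor VII (F7), the protease that starts clotting with tissue factor, showed little spread within diets. It stood at 5.62 and 5.60 on the combined diet, 5.41 and 5.45 on the trans-fat/HFCS diet, 5.43 and 5.45 on the MSG diet and 5.07 and 5.15 on the control diet. Every other array lay above both control arrays. Against control the combined diet differed by 0.50 (SE 0.15, 95% interval 0.16 to 0.85, adjusted p = 0.15 in limma), the trans-fat/HFCS diet by 0.32 and the MSG diet by 0.34. The 3 differences share the control arrays. With the median of the probe sets in place of the mean, the combined diet differed by -0.0095.

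Fibrinogen is built from the alpha, beta and gamma chains of FGA, FGB and FGG. FGB stood at 8.24 and 8.23 on the combined diet, 8.51 and 8.56 on the trans-fat/HFCS diet, 8.74 and 8.50 on the MSG diet and 8.79 and 8.57 on the control diet. The combined-diet arrays lay below all others. Against control the combined diet differed by -0.44 for FGB (SE 0.17, adjusted p = 0.24 in limma), -0.08 for FGA (SE 0.19) and -0.19 for FGG (SE 0.16). The 95% intervals were -0.83 to -0.06, -0.51 to 0.35 and -0.56 to 0.18, so they overlapped. Of the 6 probe sets of FGB, 1 moved by -1.30 in this comparison, and without it the mean change was -0.27.

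The contact factors start clotting on charged surfaces and release bradykinin. KNG1, the kininogen from which bradykinin is cut, stood at 4.78 and 5.02 on the combined diet, 5.42 and 5.38 on the trans-fat/HFCS diet, 5.16 and 4.46 on the MSG diet and 4.54 and 5.06 on the control diet. Both trans-fat/HFCS arrays were above the other 6, at 0.59 over control (SE 0.26, adjusted p = 0.27 in limma), and without 1 array that value lay between 0.34 (control array 1 left out) and 0.85 (control array 2 left out). These arrays too had the high muscle markers, and their part was not tested. F12 differed by 0.29 with trans fat and HFCS (SE 0.15), with 8 of 9 probe sets positive. Plasma kallikrein (KLKB1) differed by -0.09 (SE 0.13), prothrombin by 0.03 (SE 0.11) and F13B, the carrier subunit of factor XIII, by -0.24 (SE 0.14).

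The 9 inhibitors and fibrinolysis genes had the narrowest range of the 5 arms with trans fat and HFCS, from -0.17 to 0.05, with a median of -0.03. SERPINF2, the inhibitor of plasmin, stood at 6.87 and 6.88 on the combined diet, 6.84 and 6.99 on the trans-fat/HFCS diet, 7.14 and 6.96 on the MSG diet and 7.02 and 7.14 on the control diet. The second trans-fat/HFCS array overlapped the second MSG array, and the difference was -0.17 (SE 0.12, adjusted p = 0.40 in limma). SERPINA1, alpha-1-antitrypsin, the inhibitor of neutrophil elastase, stood at 5.91 and 6.21 on the combined diet, 6.15 and 5.95 on the trans-fat/HFCS diet, 6.35 and 6.13 on the MSG diet and 6.30 and 6.12 on the control diet. The arrays overlapped, with a difference of -0.17 (SE 0.13, adjusted p = 0.47). The brightest probe sets of the pair differed by 0.03 and 0.19, opposite in sign to their means.

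Antithrombin (SERPINC1) differed by 0.05 with trans fat and HFCS (SE 0.12), heparin cofactor II (SERPIND1) by -0.08 (SE 0.17) and plasminogen (PLG), the precursor of plasmin, by 0.02 (SE 0.15). Protein C (PROC), which inactivates factors V and VIII, differed by 0.03 (SE 0.13), its cofactor protein S (PROS1) by -0.05 (SE 0.13) and CPB2, a carboxypeptidase that slows clot lysis, by -0.03 (SE 0.14). PROZ, a cofactor in the inhibition of factor Xa, differed by -0.0084 (SE 0.19). The intervals of all 6 genes other than PROZ named in these sentences ran no lower than -0.46 and no higher than 0.36.

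Single probe sets were also tested, over 111624 kept probe sets of all genes, a step added after the gene values were seen. Of the 382 that belong to the 39 genes, 7 were called for trans fat and HFCS, against 2.45% of all probe sets. Those higher belonged to C1S, F11, C6 and KNG1 and those lower to F5, F10 and MASP1, each with 1 probe set. Those of C1S, F11 and C6 passed the filter at log2 2.43 only through the arrays where they are high: on the 6 arrays outside the trans-fat/HFCS diet they averaged 1.87, 2.25 and 2.17. That of MASP1 averaged 2.24 on the 4 arrays with trans fat and passed through the other 4. The counts of calls are therefore given as a description.

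The test was then run over all 224320 single-gene probe sets with no filter. For trans fat and HFCS, 6 of the 611 probe sets of the group were called, against 1.24% of all. These 6 include a probe set outside the 7 above. Of the 7, those of C1S, F11, C6, F5 and F10 had adjusted p = 0.0030, 0.019, 0.032, 0.028 and 0.018 in limma. Those of KNG1 and MASP1 did not pass (0.055 and 0.052). With the trans-fat/HFCS diet set against control, 4 of the 382 were called, in C1S, C6 and F11 (higher) and F10 (lower), against 0.927% of all and 0.492% with no filter. With no filter these had adjusted p = 0.0026, 0.032, 0.027 and 0.039. The C1S probe set was the only one of the 382 called for MSG (-2.55) and for the interaction (-5.08), against 0.151% and 0.0618% of all. With no filter its adjusted p was 0.013 and 0.018 in limma, against 0.0758% and 0.0308% of all called. The remaining probe sets of C1S averaged 0.06 for trans fat and HFCS, those of F11 0.31, C6 -0.08, KNG1 0.16, F5 -0.17, F10 -0.12 and MASP1 -0.10.

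**Figure D4:**
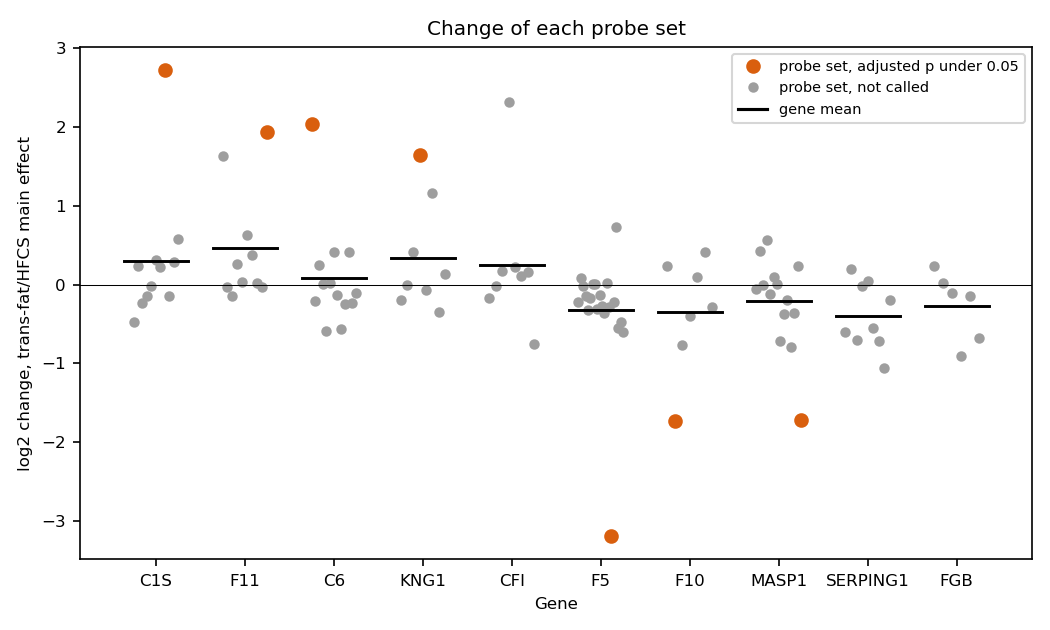
Log2 change of every kept probe set (y axis, trans-fat/HFCS main effect) in 10 genes (x axis). Orange points passed the test over all probe sets, grey points did not, and black bars are gene means; C1S has 1 point at 2.72 and the rest between -0.48 and 0.58.

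Against control, no gene of the 39 passed on any of the 3 diets in limma. The combined diet ranged from -0.45 for SERPING1 to 0.50 for F7, with a median of -0.08, and 3 of 39 had an unadjusted p under 0.05 (F7, FGB and F5). Over all genes 1.16% passed after adjustment and 16.5% before it. The trans-fat/HFCS diet ranged from -0.31 for SERPING1 to 0.63 for C1S, with a median of 0.04, and also had 3 (C1S, F11 and KNG1), against 2.48% and 18.3% of all genes. The MSG diet ranged from -0.19 for C9 to 0.50 for MBL2, with a median of 0.02 and none at an unadjusted p under 0.05, against 0.296% and 7.64% of all genes. Intervals were wider with 2 arrays a side. They stayed within 2-fold for 36 genes on the combined diet, 37 on the trans-fat/HFCS diet and 38 on the MSG diet.

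MSG, averaged over both base diets (4 arrays against 4), gave no call among the 39 genes, against 0.329% of all genes in limma. At an unadjusted p under 0.05 there were 2, against 7.91% of all genes: C1S at -0.31 (SE 0.12) and F7 at 0.26 (SE 0.11). Without both trans-fat/HFCS arrays, where only the MSG diet against control is left, C1S stood at 0.015. PROS1 was at 6.38 and 6.07 on the combined diet and 6.43 and 6.30 on the MSG diet, against 6.12 and 5.94 on the trans-fat/HFCS diet and 6.10 and 5.89 on the control diet. Only the lower combined-diet array overlapped the arrays without MSG, and the difference was 0.28 (SE 0.13, adjusted p = 0.65 in limma). Of the 7 probe sets of PROS1, 1 moved by 1.53, and without it the mean change was 0.07. All 39 intervals lay within 2-fold and 36 within 1.5-fold.

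The interaction compared the effect of MSG between base diets, as its effect with trans fat and HFCS minus its effect on chow. No gene passed in limma, against 0.151% of all genes, and 2 had an unadjusted p under 0.05, C4BPA (-0.66, SE 0.29) and C1S (-0.66, SE 0.23), against 9.07%. Of the 39 values 29 were negative, with a median of -0.18, where 50.3% of all genes were negative with a median of -0.0032. The median per array, relative to control, was -0.03 and -0.02 on the combined diet, 0.06 and 0.07 on the trans-fat/HFCS diet and 0.14 and -0.08 on the MSG diet. The 2 MSG arrays thus lay on opposite sides of control. Without 1 array the median ran from -0.23 to -0.04, the latter without MSG array 1, and without control array 2 it was -0.10. Over 8 other settings it ran from -0.18 to -0.07, the latter with dim probe sets kept. C4BPA stood at 6.58 on both combined-diet arrays, 6.99 and 6.96 on the trans-fat/HFCS diet, 7.14 and 6.72 on the MSG diet and 6.47 and 6.86 on the control diet. The errors of an interaction are larger, and 32 of 39 intervals stayed within 2-fold.

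Other genes of both pathways were listed for comparison. Of 26 measured complement genes outside the 39, 1 rose with trans fat and HFCS and none fell (3.85%, against 7.66% of all genes called). This was CD59, a membrane protein that stops C9 from completing the pore. CD59 stood at 5.33 and 5.50 on the combined diet and 5.68 and 5.94 on the trans-fat/HFCS diet, against 4.72 and 4.31 on the MSG diet and 4.37 and 4.22 on the control diet. All 4 arrays with trans fat exceeded the other 4, and the gene rose by 1.21 (SE 0.14, adjusted p = 0.0026 in limma). It rests on 2 kept probe sets, at 1.83 and 0.58, and with the brighter one alone (0.58) it did not pass (adjusted p = 0.17 in limma). Without both trans-fat/HFCS arrays only the combined diet against the MSG diet is left, and CD59 did not pass there (0.90, adjusted p = 0.076 in limma). Over 10 other settings, these 2 among them, the change ran from 0.27 to 1.22, and 8 kept the call. Against control CD59 rose by 1.51 on the trans-fat/HFCS diet and by 1.12 on the combined diet (SE 0.20 each, adjusted p = 0.0084 and 0.039), and the combined-diet call ended when any 1 of the 8 arrays was left out. The trans-fat/HFCS call ended without either control array or without trans-fat/HFCS array 2 (adjusted p up to 0.086 in limma), with the brightest probe set (0.60, adjusted p = 0.37) and with dim probe sets kept (0.34, adjusted p = 0.11).

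Of 25 measured coagulation genes outside the 39, 1 rose and 1 fell with trans fat and HFCS, a share near the 7.66% of all genes. F2RL1, a receptor that proteases of clotting can cleave, stood at 6.15 and 5.81 on the combined diet and 6.31 and 6.10 on the trans-fat/HFCS diet, against 4.79 and 5.24 on the MSG diet and 5.60 and 4.96 on the control diet. The 4 arrays with trans fat exceeded the other 4, and it rose by 0.95 (SE 0.18, adjusted p = 0.018 in limma). ANXA2, an annexin that binds plasminogen and its activator on cell surfaces, stood at 7.05 and 7.77 on the combined diet and 7.93 and 7.21 on the trans-fat/HFCS diet, against 8.71 and 8.10 on the MSG diet and 8.69 and 8.56 on the control diet. All 4 arrays with trans fat lay below the other 4, and it fell by 1.02 on the log2 scale (SE 0.23, adjusted p = 0.029 in limma). Among 10 other settings was a fit without both trans-fat/HFCS arrays, which leaves only the combined diet against the MSG diet. Each call was lost in 3 of the 10, with adjusted p up to 0.125 for F2RL1 and 0.165 for ANXA2 in limma. Among these settings were the brightest probe sets, at 0.40 for F2RL1 and -0.28 for ANXA2. The smallest change of ANXA2 in any of them was -0.26. Without 1 array their adjusted p lay between 0.022 and 0.074 for F2RL1 and between 0.023 and 0.11 for ANXA2. The calls ended for F2RL1 without control array 2, MSG array 1 or trans-fat/HFCS array 1, and for ANXA2 without either control array, combined-diet array 1, trans-fat/HFCS array 2 or MSG array 1.

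Of 13 measured genes that control liver secretory genes, such as the IL-6 pathway and liver transcription factors, none passed for trans fat and HFCS (7.66% of all genes) and 1 fell with MSG (0.329% of all genes). NFKBIA, the inhibitor of NF-kappaB, stood at 6.20 and 6.13 on the combined diet and 5.81 and 5.87 on the MSG diet, against 6.76 and 6.69 on the trans-fat/HFCS diet and 6.90 and 6.92 on the control diet. All 4 arrays with MSG lay below the other 4, and it fell by 0.82 on the log2 scale (SE 0.11, adjusted p = 0.019 in limma). On the MSG diet alone it stood 1.07 below control (adjusted p = 0.028 in limma), a call lost in 3 of 8 other settings. With each of the 8 arrays left out in turn, this call was lost in 6 of the 8 fits. For MSG averaged over both base diets, 10 other settings included a fit without both trans-fat/HFCS arrays, which leaves only the MSG diet against control. Of the 10, 4 gave no call (adjusted p up to 0.40 in limma). Among them were its brightest probe set alone (-0.42) and the median of its probe sets (-0.66). Without 1 array the adjusted p lay between 0.049 and 0.12, and it passed without combined-diet array 2 only.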

How the data were processed

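Liver RNA for 8 arrays was labelled with biotin for human whole-transcript arrays, per the labels' protocols. The authors deposited normalized linear intensity values per exon-level probe set. GCRMA, Partek and hg19 are named without versions, roles or order, per the submitters' processing notes. Values were taken as log2 here. Probe sets annotated to 1 gene with a mean above the median of all 257101 (log2 2.43) were averaged per gene. limma 3.58.1 (R 4.3.3) fitted a 4-group model to all arrays, with 4 residual and 5.01 prior degrees of freedom, two-sided, Benjamini-Hochberg over 17910 genes, threshold 0.05. The fit was tested on simulated data. Genes and lists were chosen with earlier results of these data known. The 2 genes of an arm with the smallest p for trans fat and HFCS were named, with the 3 brightest and dimmest; others were singled out after their values were seen, by unadjusted p or for the chain or complex they belong to. Cat gene symbols matched 36 of 40. Replicate numbers did not pair arrays: deviations of same-numbered arrays correlated between -0.056 and 0.043. Alternatives were other filters, gene summaries, normalization, variance models, a replicate block and left-out arrays. No sequences or coordinates are used here.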

Additional observations from a re-analysis of the deposited data

Results flagged for a closer look

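C1S probe set 7953614 had an effect of MSG with trans fat and HFCS that differed from its effect on chow by -5.08 on the log2 scale (adjusted p = 0.018 in limma over 224320 probe sets with no filter). It read 1.99 and 1.98 on the combined diet, 6.77 and 7.38 on the trans-fat/HFCS diet, 1.79 and 1.82 on the MSG diet and 1.84 and 1.79 on the control diet. It passed the filter on dim probe sets only through the trans-fat/HFCS arrays, since the other 6 averaged 1.87, and over the 111624 filtered probe sets its adjusted p was 0.021. The C1S gene mean had an interaction of -0.66 (SE 0.23, adjusted p = 0.45). Groups of 2 arrays are too small for a test of single arrays that stand apart.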

How the results depend on the processing

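The count of complement and coagulation genes called was 0 in each of the 6 comparisons and remained 0 when any 1 array was left out, with the exceptions that follow for other settings. For the trans-fat/HFCS main effect it was 1 without the filter on dim probe sets (F11) and 2 with an intensity trend (F11 and C1S). With the trans-fat/HFCS diet set against control it was 1 with that trend (C1S). With the filter, the means of both genes include a probe set that passed it only through the trans-fat/HFCS arrays. With the replicate block the count was 0 in all 6, and calls over all genes were 34 against 53 for the MSG diet, 96 against 207 for the combined diet and 11 against 27 for the interaction. Over all genes, counts ranged from 233 to 2182 for the trans-fat/HFCS main effect (1372), 1 to 106 for MSG (59), 15 to 102 for the MSG diet (53), 180 to 1120 for the trans-fat/HFCS diet (444), 44 to 730 for the combined diet (207) and 5 to 56 for the interaction (27). Without 1 array the ranges were 443 to 1234, 12 to 68, 13 to 55, 62 to 528, 0 to 145 and 5 to 20 in that order.

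Some changes that did not pass turned sign, and the cause was not tested. With the brightest probe set these were C1S (-0.15 for the main effect, -0.026 against control), F5 (0.013, and 0.073 for the combined diet), SERPINA1 (0.19), SERPINF2 (0.034) and SERPING1 (0.041). With the median of the probe sets they were C1S (-0.018), F11 against control (-0.086) and F7 (-0.027 for MSG, -0.0095 for the combined diet). Without both trans-fat/HFCS arrays, C1S stood at -0.024 for the combined diet against the MSG diet and 0.015 for the MSG diet against control. The median over the genes for the combined diet, -0.08, lay between 0.0017 and 0.033 with both other filters and both other gene summaries. With 2 arrays a diet, 95% intervals against control stayed within 1.5-fold for 18 of the 39 genes on the combined diet, 19 on the trans-fat/HFCS diet and 25 on the MSG diet.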

Other observations

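CFB could not be tested, but probe sets that name both C2 and CFB were measured. There were 50, with 20 distinct sets of values, 10 of them above the median. Their mean log2 intensity was 7.30 and 7.26 on the combined diet, 7.57 and 7.40 on the trans-fat/HFCS diet, 7.78 and 7.44 on the MSG diet and 7.44 and 7.57 on the control diet. The 2 probe sets of CFB alone held identical values, between 1.78 and 2.77. The 58 probe sets of C2 also held repeats, with 20 distinct sets of values. Counting identical probe sets of a gene once, a choice made after seeing the data, changed no count of calls among the 39 genes.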
